A study of Macaca mulatta with 24 samples.

Results

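TNF and the genes that NF-kB switches on to restrain or prolong its own activity were followed in the jejunum of rhesus macaques after total-body irradiation (TBI). The set held 10 genes: TNF, IER3, TNFAIP3, TNFAIP2, NFKBIA, NFKB1, NFKB2, RELB, BIRC3 and TRAF1. A gene entered through every array probe that carried its symbol in the authors' table of normalized jejunum signals. Of the 10 genes, 9 had a probe, with 13 probes among the 43603 on the array. TNFAIP2 had none and is not described further.

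Young-adult male macaques received a single uniform dose of cobalt-60 gamma rays, 6.7 Gy or 7.4 Gy, or were sham-irradiated. Whole jejunal wall was collected on day 4 (4 animals per dose), day 7 (4 per dose) or day 12 (2 per dose), and RNA of each animal was hybridized to its own array. The 4 unirradiated animals, labelled as day 4, were the control for every dose and day, so day 7 and day 12 had no control of their own day. The growth and treatment notes in the labels name 21 days where the sample labels give day 12, and the sample labels were followed. Whole gut wall mixes epithelium, blood vessels, muscle, connective tissue and immune cells, so that fewer cells of a type and less RNA per cell cannot be told apart in any value below.

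TNF is a cytokine made largely by activated macrophages and other immune cells. When it binds its receptors, the IKK kinase complex is activated, the inhibitor IκBα is degraded, and NF-kB dimers move to the nucleus and switch on genes for chemokines, adhesion molecules and survival factors. Among these targets are genes that act back on the signal: NFKBIA encodes IκBα itself, TNFAIP3 encodes the ubiquitin-editing enzyme A20 that dismantles the receptor complex, and IER3 encodes a stress-induced early response protein. NFKB1, NFKB2 and RELB encode NF-kB subunits or their precursors. BIRC3 (cIAP2) and TRAF1 encode proteins that join the receptor complex and limit cell death.

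The level of a probe was the log2 of its signal minus the log2 of the array's 75th percentile signal, so that 0 is that percentile and 1 unit is a doubling. Levels of different probes depend on the probe sequence and are not compared with each other. A change was called when limma gave an adjusted p under 0.05 over the 28171 probes tested and the change was 2-fold or more. Of the 13 probes, 12 were tested. The second TNF probe was well above background on 11 of 24 arrays and on every array of no group. Where a gene had 2 tested probes, the brighter stood for it.

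The arrays lay on 6 slides of 4 positions and were scanned on 2 days. Between 17159 and 38226 probes per array were well above background. The lowest signal well above background was 130 to 277 on slide 5 and 40.6 to 83 on slide 4, against 7.03 to 31.8 elsewhere. All controls lay at position 1 of slides 1 to 4. The day 4 arrays lay at positions 1 and 2, and the arrays of the later days at positions 3 and 4, so position and day cannot be told apart beyond day 4.

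On day 4, IER3, TNF and TNFAIP3 were up-regulated in the mean of both doses. IER3 rose 3.44-fold, TNF 2.29-fold and TNFAIP3 2.01-fold over control. These were 3 of the 9 genes tested, and 2.88% of all probes tested were called in that comparison, in either direction. The median log2 change of the 9 genes was 0.71, against -0.07 over all probes, and the change was positive for 9 of 9 genes against 41.9% of all probes. With position on the slide as a block, a fit described further on, none of the 3 was called. The changes were then 1.25 for IER3, 0.59 for TNF and 0.52 for TNFAIP3. By day 7 none of the 9 genes was called against control, and IER3, TNF and TNFAIP3 were all lower than on day 4.

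**Figure D1:**
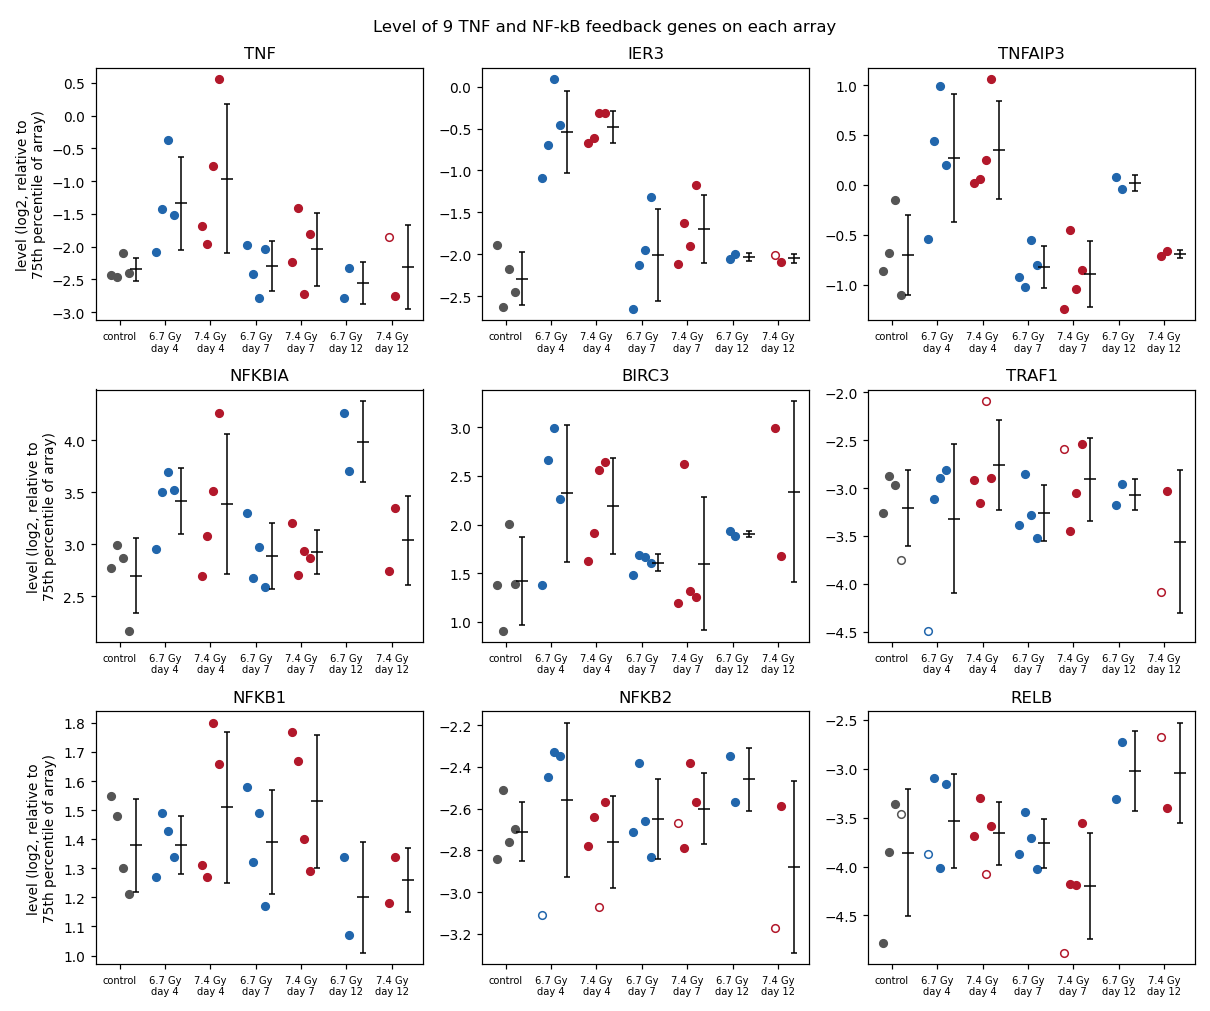
Level of each gene (log2, scaled to the array's 75th percentile) on every array, by group. Each point is 1 animal (grey control, blue 6.7 Gy, red 7.4 Gy; open points were not well above background), and the dash and bar beside the points are the mean and SD of the group. The day 4 points of IER3 and of TNF lie above every control point, and those of NFKB1 and NFKB2 overlap the controls.

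TNF, the ligand, had control levels of -2.43, -2.47, -2.10 and -2.40. At 6.7 Gy the 4 levels of day 4 were -2.08, -1.42, -0.37 and -1.51. At 7.4 Gy they were -1.68, -1.96, -0.77 and 0.56. All 8 irradiated arrays thus lay above all 4 controls, but the lowest, at -2.08, was close to the highest control, and the irradiated levels were spread far more widely than the controls. The SD was 0.17 in control, 0.71 after 6.7 Gy and 1.14 after 7.4 Gy. Of all probes tested, 4.08% had all 8 day 4 arrays above all controls.

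The log2 change of TNF against control was 1.00 ± 0.32 (SE, n = 4 and 4) after 6.7 Gy and 1.38 ± 0.48 after 7.4 Gy. Neither passed the limma test alone, with adjusted p of 0.118 and 0.124. In the mean of both doses the change was 1.19 ± 0.38, with a 95% interval of 0.41 to 1.98 and an adjusted p of 0.0479. That call was close to the threshold. It was lost in 17 of the 24 fits that left out 1 array, in which the change stayed between 0.94 and 1.36 and the adjusted p between 0.0246 and 0.125. The arrays concerned were the 4 controls, replicates 2, 3 and 4 of 6.7 Gy day 4, replicates 3 and 4 of 7.4 Gy day 4, and 8 arrays of later days that contribute only to the estimate of the spread. Without 7.4 Gy day 4 replicate 4, the brightest array, the change was 0.94 (adjusted p = 0.0586). The call was also lost in 9 of 14 other settings, with changes from 0.59 to 1.28 over the 14. The smallest change, 0.59 (adjusted p = 0.72), came with position on the slide as a block, and blocks of slide and of scan day gave 0.93 (adjusted p = 0.165) and 0.97 (adjusted p = 0.156).

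On day 7 the TNF levels were -1.98, -2.42, -2.79 and -2.03 in the 6.7-Gy group, and -2.23, -1.41, -2.72 and -1.81 in the 7.4-Gy group. On day 12 the 6.7-Gy animals gave -2.78 and -2.32, and the 7.4-Gy animals -1.85 and -2.76. These levels lay on both sides of the controls, and the array at -1.85 was not well above background. In order of group mean, both day 4 groups stood highest, at -0.96 after 7.4 Gy and -1.34 after 6.7 Gy. The other 5 groups, control included, lay between -2.55 and -2.04 with SDs of 0.17 to 0.64, so the order among them is within their spread.

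TNF fell by 1.02 ± 0.31 on the log2 scale from day 4 to day 7 (adjusted p = 0.0285 in limma) and by 1.27 ± 0.38 from day 4 to day 12 (adjusted p = 0.031). Some day 4 and later arrays overlapped in both comparisons. The day 7 call was lost in 6 of 13 other settings and the day 12 call in 4 of 13. The day 7 call was also lost in 7 of 24 fits without 1 array, with changes between -1.19 and -0.77. Those were the fits without 6.7 Gy day 4 replicate 3 (-0.86), 7.4 Gy day 4 replicates 3 (-0.99) and 4 (-0.77), 6.7 Gy day 7 replicates 2 (-1.0) and 3 (-0.94), and 7.4 Gy day 7 replicates 1 (-0.99) and 3 (-0.91). Of the fits without 1 array, the day 12 call was lost in 4, without 6.7 Gy day 4 replicate 3 (-1.11), 6.7 Gy day 12 replicate 1 (-1.16) or 2 (-1.39), or 7.4 Gy day 12 replicate 2 (-1.05).

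IER3, the early response gene, separated day 4 from control most clearly of the 9 genes by adjusted p. Its control levels were -1.89, -2.63, -2.18 and -2.45. On day 4 the levels were -1.09, -0.70, 0.09 and -0.46 after 6.7 Gy. After 7.4 Gy they were -0.67, -0.61, -0.31 and -0.32. All 8 irradiated arrays lay above the 4 controls, as they did for 4.08% of all probes tested. The gap between the highest control and the lowest irradiated array was wider than the range of the controls.

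Against control, IER3 rose by 1.75 ± 0.27 on the log2 scale after 6.7 Gy (3.36-fold, adjusted p = 0.0156) and by 1.81 ± 0.19 after 7.4 Gy (3.51-fold, adjusted p = 0.00394). It was the 1 gene of the 9 called at each single dose, where 1.98% and 2.6% of all probes tested were called (559 and 733 probes). With 1 array left out, these counts ran from 235 to 614 after 6.7 Gy and from 295 to 653 after 7.4 Gy, both lowest without control replicate 2, and IER3 stayed the 1 gene called. Of 16 other settings, the IER3 call was lost in 3 after 6.7 Gy and in 1 after 7.4 Gy. In the mean of both doses the change was 1.78 ± 0.23, with a 95% interval of 1.30 to 2.26 (adjusted p = 0.000109). Leaving out 1 array at a time kept the mean change between 1.67 and 1.91 and the call in all 24 fits. The call was lost with position as a block (1.25, adjusted p = 0.102) and kept in the other 13 of 14 settings.

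A second IER3 probe gave control levels of -2.02, -2.14, -2.12 and -2.18, a narrower range than the first. Its day 4 levels ran from -1.26 to -0.40 after 6.7 Gy and from -1.02 to -0.69 after 7.4 Gy. The change was 1.21 after either dose, with adjusted p of 0.0179 and 0.00442, and 1.21 ± 0.18 in the mean of both (adjusted p = 0.000476). Both probes therefore gave a call in the same direction, and the second gave the smaller change.

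On day 7 the IER3 levels of the first probe were -2.65, -2.13, -1.95 and -1.32 in the 6.7-Gy group, and -2.12, -1.63, -1.90 and -1.17 in the 7.4-Gy group. On day 12 the 6.7-Gy animals gave -2.06 and -2.0, and the 7.4-Gy animals -2.01 and -2.09. The day 12 levels all lay within the range of the controls. On day 7, 3 of 8 arrays lay above the highest control, and the 7.4-Gy group differed by 0.59 ± 0.25 (unadjusted p = 0.0408, adjusted p = 0.282). All day 7 and all day 12 arrays lay below all day 4 arrays, and the share of all probes that did so was not computed. IER3 fell by 1.35 ± 0.19 on the log2 scale from day 4 to day 7 (adjusted p = 0.000129) and by 1.53 ± 0.23 from day 4 to day 12 (adjusted p = 0.000577).

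TNFAIP3, which encodes A20, had control levels of -0.86, -0.68, -0.15 and -1.10. On day 4 they were -0.54, 0.44, 0.99 and 0.20 after 6.7 Gy. After 7.4 Gy they were 0.02, 0.06, 0.25 and 1.06. Of the 8 irradiated arrays, 7 lay above all controls, and the exception was 6.7 Gy replicate 1. The change was 0.97 ± 0.33 after 6.7 Gy (adjusted p = 0.137) and 1.04 ± 0.28 after 7.4 Gy (adjusted p = 0.0663), and 1.01 ± 0.24 in the mean of both (95% interval 0.50 to 1.51, adjusted p = 0.0122).

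The mean change of TNFAIP3 on day 4 was close to the 2-fold limit. The call was lost without control replicate 1 (0.95) or 4 (0.87), without 6.7 Gy day 4 replicate 2 (0.98) or 3 (0.89) and without 7.4 Gy day 4 replicate 4 (0.89). The adjusted p stayed between 0.0187 and 0.0494 in those fits, so the call was lost on the size of the change. It was also lost in 4 of 15 other settings, among them another background correction (normexp). With slide or scan day as a block the changes were 0.99 and 1.00, just short of the limit, with adjusted p of 0.0192 and 0.0308. With position on the slide as a block the change was 0.52 (adjusted p = 0.615), so that the call was lost on the p as well.

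On day 7 every TNFAIP3 level, from -1.24 to -0.45, lay below the highest control. TNFAIP3 fell by 1.17 ± 0.20 on the log2 scale from day 4 to day 7 (adjusted p = 0.000604). On day 12 the levels split by dose, at 0.08 and -0.04 after 6.7 Gy and -0.71 and -0.66 after 7.4 Gy. With 2 animals per dose that difference, -0.71 ± 0.40, had an adjusted p of 0.996. From day 4 to day 12 the change was -0.64 ± 0.24 (adjusted p = 0.083), not called.

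NFKBIA, which encodes IκBα, was well above background on every array. Its control levels were 2.77, 2.99, 2.87 and 2.17. On day 4 they were 2.96, 3.50, 3.70 and 3.52 in the 6.7-Gy group, and 2.70, 3.08, 3.51 and 4.26 in the 7.4-Gy group. Of these 8 arrays, 6 lay above all controls. The mean change of 0.71 ± 0.24 (1.63-fold, 95% interval 0.20 to 1.21) had an unadjusted p of 0.00813 and an adjusted p of 0.0636 and was not called.

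The day 12 levels of NFKBIA were 4.26 and 3.71 after 6.7 Gy, both above every control, and 2.74 and 3.35 after 7.4 Gy. The group means therefore had another order than those of TNF and IER3: 6.7 Gy day 12 stood highest at 3.99, followed by both day 4 groups at 3.42 and 3.39, and control was lowest at 2.70. The change on day 12 was 1.29 ± 0.28 after 6.7 Gy (unadjusted p = 0.00263, adjusted p = 0.443) and 0.34 ± 0.30 after 7.4 Gy. The difference between the doses on that day was -0.94 ± 0.39 (unadjusted p = 0.0259, adjusted p = 0.995). From day 4 to day 7 NFKBIA differed by -0.49 ± 0.20 (adjusted p = 0.0881) and from day 4 to day 12 by 0.11 ± 0.24 (adjusted p = 0.792), and neither was called.

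BIRC3, which encodes the ubiquitin ligase cIAP2, had control levels of 1.38, 0.91, 2.01 and 1.39. Its day 4 levels were 1.38, 2.66, 2.99 and 2.26 in the 6.7-Gy group, and 1.63, 1.91, 2.56 and 2.64 in the 7.4-Gy group. The groups overlapped, with 5 of 8 irradiated arrays above all controls. The mean change of 0.83 ± 0.32 (1.78-fold, unadjusted p = 0.0162) had an adjusted p of 0.0952. On later days single arrays stood high, at 2.62 for 7.4 Gy day 7 replicate 2 and 2.99 for 7.4 Gy day 12 replicate 1.

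TRAF1, an adaptor that binds BIRC3, was dim and was well above background on 19 of 24 arrays. Its control levels ran from -3.75 to -2.87 and its day 4 levels from -4.49 to -2.09. The mean change on day 4 was 0.17 ± 0.29, with a 95% interval of -0.44 to 0.78. Both extremes on day 4 were arrays of slide 5 on which the probe was not well above background.

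The subunit genes showed no call in any comparison. For NFKB1, which encodes p105 and p50, the control levels ran from 1.21 to 1.55 and the day 4 levels from 1.27 to 1.80. The day 4 change was 0.06 ± 0.13 (95% interval -0.21 to 0.33), which leaves out a change of 2-fold in either direction. The second NFKB1 probe gave 0.13 ± 0.15 (-0.17 to 0.44). NFKB2, which encodes p100 and p52, had control levels of -2.84 to -2.51 and day 4 levels of -3.11 to -2.33. Its day 4 change was 0.04 ± 0.15 (-0.28 to 0.37), and its second probe gave 0.03 ± 0.15 (-0.28 to 0.34).

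RELB, the partner of p52, was well above background on 19 of 24 arrays. Its control levels were -4.78, -3.85, -3.36 and -3.46, and its day 4 levels ran from -4.08 to -3.09, so that the groups overlapped. The day 4 change was 0.27 ± 0.27 (-0.30 to 0.84). On day 12 the 6.7-Gy animals gave -3.31 and -2.73 and the 7.4-Gy animals -2.67 and -3.40, and 3 of these lay above all controls. The change of 0.83 ± 0.32 had an unadjusted p of 0.0157 and an adjusted p of 0.417, and the level of -2.67 was not well above background. With 1 array left out the change ran from 0.53 to 1.02. All RELB levels lay under the common floor of -1.85 used as an alternative, so that it gave no difference.

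**Figure D2:**
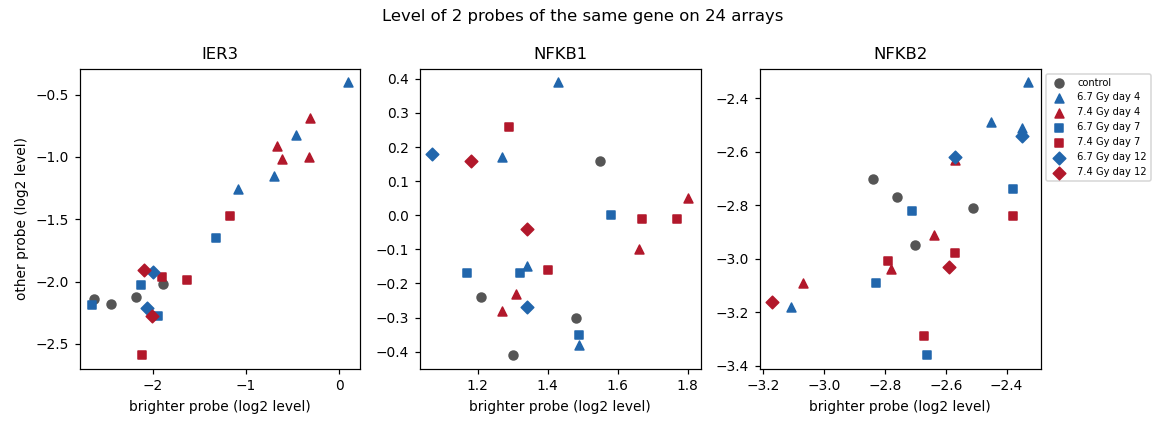
Level of the brighter probe (horizontal axis) against the other tested probe (vertical axis) of IER3, NFKB1 and NFKB2, both in log2 scaled to the array's 75th percentile, on 24 arrays. Circles are controls, triangles day 4, squares day 7 and diamonds day 12 (grey control, blue 6.7 Gy, red 7.4 Gy); for IER3 the day 4 arrays stand apart on both probes, which rose by 1.78 and 1.21 on day 4.

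Across the later days, none of the 9 genes was called against control by limma. On day 7 the comparisons were 6.7 Gy, 7.4 Gy and the mean of both, in which 0.0639%, 0.288% and 0.877% of all probes were called. An unadjusted p under 0.05 was found for 0, 1 and 0 of the 9 genes, and for 10.5%, 16.4% and 17.1% of all probes. On day 12 the shares of all probes called were 0.0071%, 0.00355% and 0.0532%, and 2, 0 and 2 of the 9 genes had an unadjusted p under 0.05, as had 7%, 8.42% and 9.09% of all probes. The counts over all probes depended on single arrays. When 1 array was left out, the day 7 counts of 18 after 6.7 Gy, 81 after 7.4 Gy and 247 in the mean became 2 to 8, 11 to 228 and 102 to 325. The day 12 counts ran from 0 to 449 after 7.4 Gy and from 0 to 179 in the mean of both doses. Without 7.4 Gy day 12 replicate 2, which leaves the slide 5 array alone in its group, the highest of the day 12 counts were reached, in place of 1 and 15. None of the 9 genes was called in any of these fits, and the methods' t-test called none of them at either dose on day 7 or day 12.

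Between days, the decline from day 4 to day 7 was called for IER3, TNF and TNFAIP3 (3 of 9 genes, against 1.88% of all probes), and from day 4 to day 12 for IER3 and TNF (2 of 9, against 3.43%). These comparisons share the day 4 arrays with the comparison against control, so they are not independent of it. Over all 7 groups, the moderated F test called IER3 (adjusted p = 0.000622) and TNFAIP3 (adjusted p = 0.0123), and 9.96% of all probes. TNF had an adjusted p of 0.113 and NFKBIA of 0.0962 in that test.

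**Figure D3:**
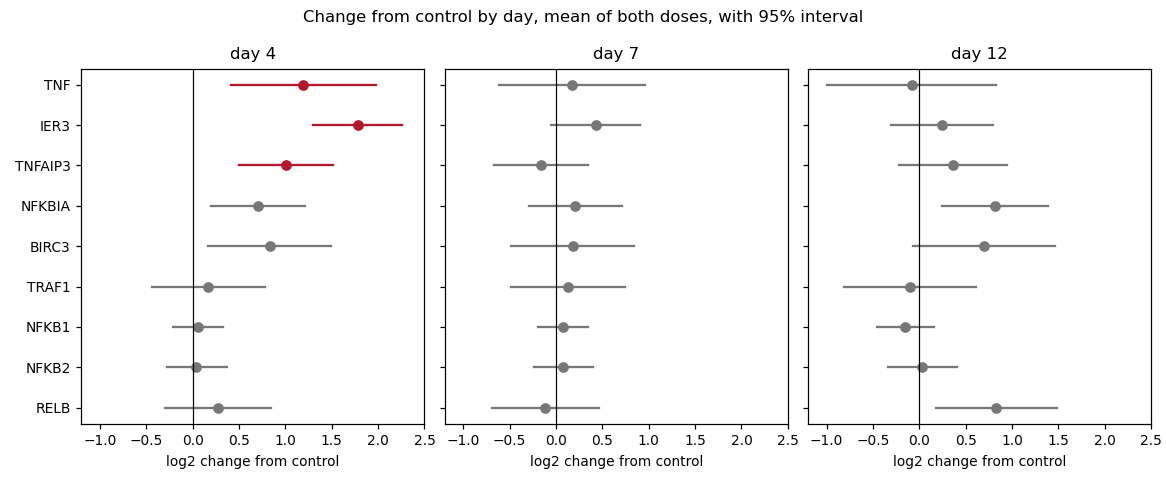
Change from control of each gene on days 4, 7 and 12 (horizontal axis, log2 scale), as the mean of both doses with its 95% interval. Red marks a called change and grey one not called; IER3 (1.78), TNF (1.19) and TNFAIP3 (1.01) are red on day 4 and none is red on day 7 or day 12.

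The 2 doses were compared directly on each day. On day 4 the difference of 7.4 Gy minus 6.7 Gy was 0.38 ± 0.44 for TNF (95% interval -0.53 to 1.29), 0.06 ± 0.27 for IER3 (-0.49 to 0.62), 0.08 ± 0.28 for TNFAIP3 (-0.51 to 0.66) and -0.03 ± 0.28 for NFKBIA (-0.61 to 0.54). No gene of the set was called between doses by limma on day 4, day 7 or day 12, and the share of all probes called was 0% on each of those days. On day 12, 0 to 362 probes were called when 1 array was left out, the most without 7.4 Gy day 12 replicate 2, and 0 genes of the set. An unadjusted p under 0.05 was found for 0 genes on day 4, 0 on day 7 and 1, NFKBIA, on day 12, and for 2.38%, 6.08% and 4.92% of all probes. Dose moved with position on the slide on day 4, since all 4 of the 7.4-Gy arrays but only 2 of the 6.7-Gy arrays lay at position 2. Among the arrays at position 2 the difference of 7.4 Gy minus 6.7 Gy was -0.02 for TNF, -0.29 for IER3, -0.25 for TNFAIP3 and -0.22 for NFKBIA, so that the sign for TNF, IER3 and TNFAIP3 was not the same as over all day 4 arrays.

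Position on the slide moved with the day 4 comparison. Of the 6.7-Gy arrays, 2 shared position 1 with the 4 controls, and all 4 of the 7.4-Gy arrays lay at position 2. Within position 1, the 6.7-Gy arrays exceeded control by 1.40 for IER3 and by 0.60 for TNF, both arrays lying above all controls for either gene. They exceeded control by 0.64 for TNFAIP3 and 0.53 for NFKBIA, with 1 of 2 arrays above all controls. The 6.7-Gy arrays at position 2 exceeded control by 2.10 for IER3, 1.41 for TNF, 1.29 for TNFAIP3 and 0.91 for NFKBIA. Both position 1 arrays were from slides 5 and 6, scanned on the second day, whereas the controls were scanned on the first.

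With position as a block in a fit of the control and day 4 arrays, the mean change was 1.25 ± 0.27 for IER3 (adjusted p = 0.102), 0.59 ± 0.66 for TNF (adjusted p = 0.72) and 0.52 ± 0.44 for TNFAIP3 (adjusted p = 0.615), so that none of the 3 calls was left. At 6.7 Gy alone the IER3 change with this block was 1.40 ± 0.25 and was called (adjusted p = 0.0405), and at 7.4 Gy it was 1.11 ± 0.35 and was not called (adjusted p = 0.361). In this fit the step from control to irradiated arrays rests on the 2 arrays of 6.7 Gy at position 1, which were scanned on another day than the controls. Over all probes, 46 were called in the mean of both doses with this block, against 811 without it. The part of position in the day 4 changes was not tested beyond this.

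Slides 1 to 4 each held 1 control and 1 day 4 array, which allowed a difference within a slide. On each of these slides the control lay at position 1 and the day 4 array at position 2. Irradiation and position therefore cannot be told apart in these differences. For IER3 the 6.7-Gy differences were 1.98 and 2.17, and the 7.4-Gy differences 1.51 and 1.85. For TNF the 6.7-Gy differences were 2.06 and 0.96, and the 7.4-Gy differences 0.42 and 0.44. For TNFAIP3 they were 1.85, 0.88, 0.17 and 1.16 in the same order, and for NFKBIA 0.94, 0.53, -0.17 and 0.91. All 4 within-slide differences were positive for IER3, TNF and TNFAIP3, and 3 of 4 for NFKBIA. The share of all probes with 4 positive differences was not computed.

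**Figure D4:**
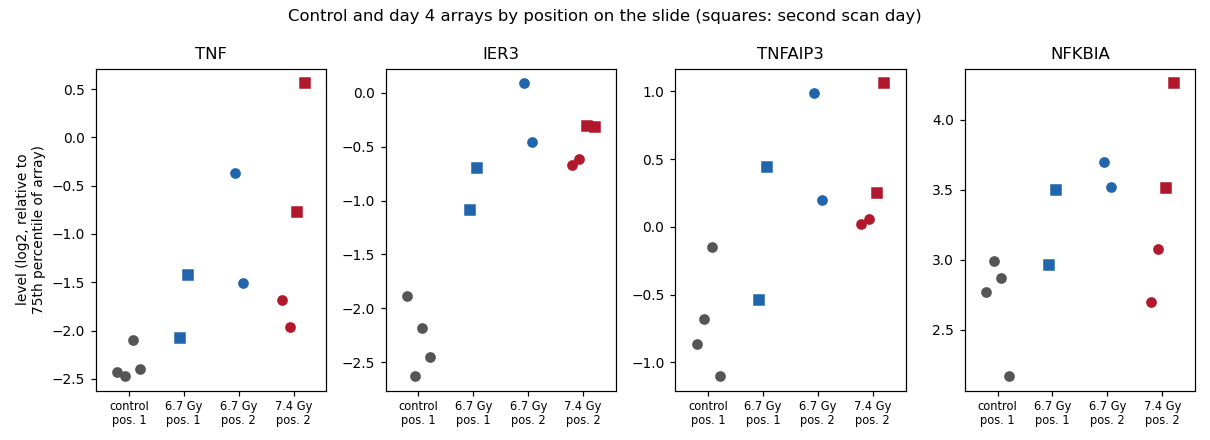
Level (log2, scaled to the array's 75th percentile) of TNF, IER3, TNFAIP3 and NFKBIA on the control and day 4 arrays, split by position on the slide; each point is 1 animal, and squares mark the second scan day. For IER3 the 2 irradiated arrays at position 1 lie above the controls at the same position and below all irradiated arrays at position 2.

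The other genes of the pathway were taken from a list in 5 classes by role, and their counts on day 4 in the mean of both doses stand against the 2.88% of all probes called there. Among receptors and adaptors, 0 of 7 genes tested were called on day 4 in the mean of both doses. The smallest p belonged to TNFRSF1A, the main TNF receptor, at -0.70 ± 0.25 (adjusted p = 0.0722), and to TRAF2, an adaptor of that receptor, at -0.41 ± 0.15 (adjusted p = 0.0799). On day 7 TNFRSF1A fell by 1.01 ± 0.25 on the log2 scale against control in the mean of both doses and was called (adjusted p = 0.0339). It was the 1 gene called of the 7, against 0.877% of all probes, and its change was close to the 2-fold limit. The groups overlapped, and it was called at neither dose alone (adjusted p = 0.272 after 6.7 Gy and 0.161 after 7.4 Gy). Among kinases 0 of 7 were called on day 4, with MAP3K14, the NF-kB-inducing kinase, at -0.35 ± 0.16 and TAB2, an adaptor of the TAK1 kinase, at 0.29 ± 0.11. The remaining subunits, RELA at 0.33 ± 0.11 and REL at 0.34 ± 0.25, were not called either.

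Of 6 further inhibitors tested, 0 were called on day 4. TNIP3, a partner of A20, differed from control by -0.74 ± 0.31 (adjusted p = 0.123), and NFKBIE, which encodes another IκB protein, by 0.23 ± 0.13 (adjusted p = 0.255). On day 12 TNIP3 was called lower in the mean of both doses (-2.09 ± 0.35, adjusted p = 0.0224). TNIP3 was the 1 gene called of the 6 there, against 0.0532% of all probes. It was called at neither dose alone, with -0.90 after 6.7 Gy (adjusted p = 0.718) and -3.28 after 7.4 Gy (adjusted p = 0.202), where it was well above background on 1 of 2 arrays. The day 12 and control arrays overlapped. The remaining 4 had day 4 changes between -0.20 and 0.41.

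Of 15 targets tested, 8 were called on day 4 in the mean of both doses, all higher, against 2.88% of all probes, and the median log2 change of the 15 was 1.13. They included the neutrophil-attracting chemokines CXCL1 (2.85 ± 0.65, adjusted p = 0.00881), CXCL3 (1.48 ± 0.31, adjusted p = 0.00504) and CXCL8 (2.58 ± 0.74, adjusted p = 0.0316). CXCL1 and CXCL8 were well above background on 18 of 24 arrays each. CCL2, which attracts monocytes, rose by 2.57 ± 0.39 (adjusted p = 0.000545), and CCL20, which attracts lymphocytes and dendritic cells, by 2.36 ± 0.59 (adjusted p = 0.0147). VCAM1, an adhesion molecule of activated endothelium, rose by 1.46 ± 0.17 (adjusted p = 3.96e-05).

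BCL2L1, which encodes the survival factor BCL-xL, rose by 1.13 ± 0.21 (adjusted p = 0.00237). CD83, a surface protein of activated dendritic cells, rose by 1.42 ± 0.29 (adjusted p = 0.00424). Among the 7 targets not called, PTGS2, the inducible cyclooxygenase, had an adjusted p of 0.0259 with a change of 0.75 ± 0.21, under 2-fold. The adhesion molecule ICAM1 was at -0.02 ± 0.15. Both were named after their values were seen. Of the 15 targets tested, 12 had a positive change in the mean of both doses. At single doses, 3 targets were called after 6.7 Gy (CCL2, CCL20 and VCAM1, against 1.98% of all probes) and 4 after 7.4 Gy (CCL2, CXCL8, VCAM1 and CD83, against 2.6%). In the mean of both doses, 0 of the 15 targets were called against control on day 7 or day 12, where 0.877% and 0.0532% of all probes were called.

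**Figure D5:**
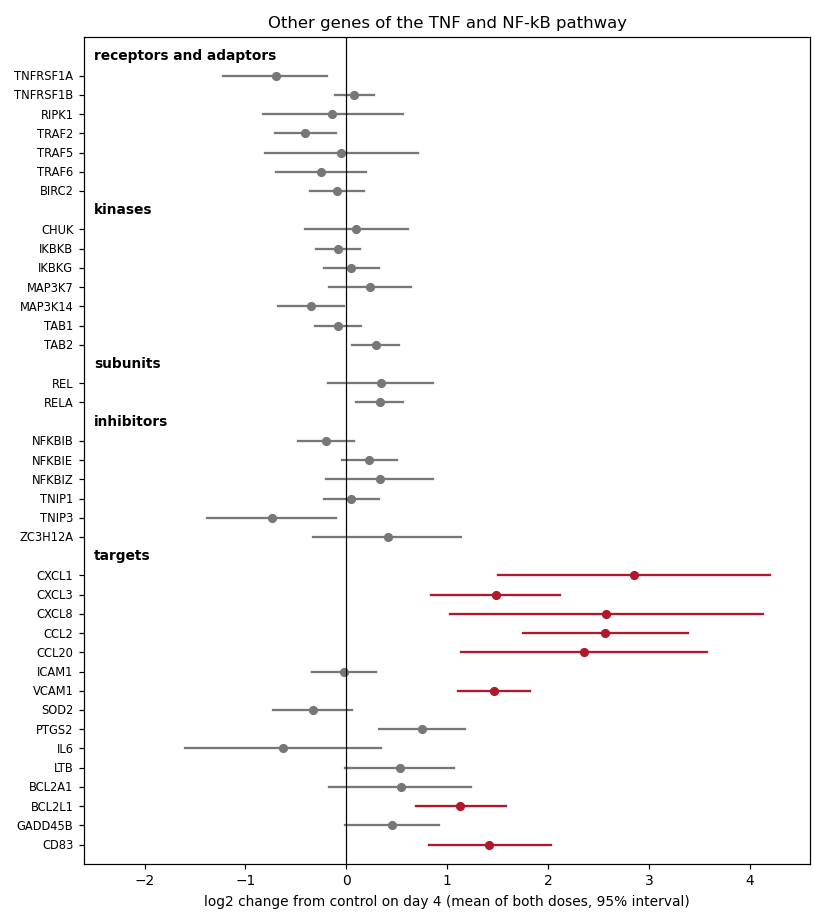
Change from control on day 4 (horizontal axis, log2 scale, mean of both doses with 95% interval) of the other pathway genes tested, grouped by role. Red marks a called change; the 8 red genes all belong to the targets, and the receptors, kinases, subunits and inhibitors hold 0.

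Markers of several cell types moved with the day 4 comparison, in which 2.88% of all probes were called in the mean of both doses. Of the absorptive enterocyte markers, 2 of 6 were called lower (FABP1 by -1.40, VIL1 by -1.29), and their summed level ran from 8.59 to 8.81 in control, 7.99 to 8.17 after 6.7 Gy and 7.90 to 8.34 after 7.4 Gy. Of the macrophage and monocyte markers, 1 of 6 was called higher (CD14, 1.09 ± 0.25). Their summed level was 5.63 to 5.93 in control, 5.77 to 6.63 after 6.7 Gy and 6.31 to 6.60 after 7.4 Gy. Of the neutrophil markers, 1 of 3 was called higher (FCGR3, 1.77 ± 0.30), a gene that macrophages and NK cells also use, and the summed level was -1.22 to -0.69 in control, -0.69 to 0.06 after 6.7 Gy and -0.76 to -0.52 after 7.4 Gy.

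Of the fibroblast markers, 1 of 5 was called higher (DCN, 1.08 ± 0.28) in the mean of both doses. After 7.4 Gy alone 4 of 5 were called higher, against 2.6% of all probes, with a median change of 1.14. After 6.7 Gy alone 0 of 5 were called, against 1.98% of all probes, with a median of 0.80. In the direct comparison of the doses on day 4, 0% of all probes were called. The fibroblast markers had a summed level of 5.04 to 6.07 in control, 6.33 to 6.49 after 6.7 Gy and 6.56 to 7.42 after 7.4 Gy. None was called among 7 T and NK cell markers, 2 B cell markers, 5 endothelial markers and 3 smooth muscle markers, and 1 of 3 erythroid markers was called lower, with a summed level of 7.22 to 8.01 in control, 6.80 to 7.44 after 6.7 Gy and 6.68 to 7.21 after 7.4 Gy. No marker with a probe was below background on all arrays. The part of these cell types in the levels of TNF, IER3 and TNFAIP3 was not tested.

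Likeness of pattern was measured as Pearson's r of the level over all 24 arrays, among tested probes with a symbol, and is given as a description, since the arrays share groups and slides. The genes most like TNF were CXCL3 (r = 0.898), LOC710396 (0.881) and CD83 (0.865). Those most like IER3 were CH25H (0.945), which encodes cholesterol 25-hydroxylase, LOC712354 (0.935) and the chemokine gene CCL19 (0.933). Those most like NFKBIA were B3GALNT1 (0.761), C3H21orf91 (0.721) and the RNA-sensing receptor gene TLR7 (0.702). With each group's mean subtracted, r was 0.858, 0.852 and 0.737 for the genes beside TNF, 0.815, 0.686 and 0.747 for those beside IER3 and 0.737, 0.615 and 0.737 for those beside NFKBIA.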

How the data were processed

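RNA of 24 jejunum samples, 1 per animal and without pooling, was measured on 1-color Agilent rhesus macaque arrays. The deposited scanner files, from Feature Extraction 11.0.1.1, hold background-subtracted signal intensities, used here. Their headers name the build rheMac2. The authors further deposited raw intensities in 1 table and, in another, log2 values from GeneSpring GX 11.0, scaled to the 75th percentile and centred per probe. That table differed from the levels computed here by at most 0.00168 for the probes described, after centring.

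Control spots were left out, repeated spots were averaged, and spots flagged as non-uniform were removed unless they were the probe's last. Levels were log2 intensity minus the array's 75th percentile, which lay between 505.4 and 1069 on the linear scale. A probe was tested if all arrays of 1 or more of the 7 groups had it well above background (28171 of 43603). No spot of the TNF probes was saturated, and the spots of the other genes were not checked for this. The authors' table gave a symbol for 23674 probes (IL8 there is CXCL8). The number of arrays limits the precision.

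Each group was compared with control in limma 3.58.1 (R 4.3.3; lmFit and eBayes, two-sided) on its own and the control arrays. Means over doses, comparisons of days and doses and the F test came from 1 model of all arrays. The Benjamini-Hochberg method was used to adjust p over all tested probes. Calls needed an adjusted p under 0.05 and 2-fold, the limits of the authors. The fitting was tested on simulated data.

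The genes, the pathway list and the marker lists (absorptive enterocytes, macrophages and monocytes, neutrophils, T and NK cells, B cells, endothelium, smooth muscle, fibroblasts, erythroid cells) were chosen with earlier results of these data known. Named pathway genes were those called in any comparison with control and, per class, the 2 with the smallest p on day 4. PTGS2 and ICAM1 were named outside this rule, after their values were seen. Likeness took the 3 symbols with the highest r. Alternatives were other background corrections (normexp on the median signal and median background), normalizations, filters, spread estimates, slide, scan day and position blocks, a replicate block, the methods' t-test, leaving out arrays and, chosen after seeing the data, leaving out slide 5. Replicates were separate animals, and same-numbered samples of different groups did not deviate together (median r = 0.017 over 62 pairs, -0.165 to 0.334), so the numbers do not pair samples. Arrays of the same slide had a median r of 0.14 over 36 pairs (-0.0733 to 0.407). No coordinates or sequences were used.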

Additional observations from a re-analysis of the deposited data

Results flagged for a closer look

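In groups of 4 arrays, the highest or lowest array was checked against the gap to its neighbour as a share of the group's range, with Dixon's 95% critical value for 4 samples as the limit. Of the 45 groups checked, 2 passed it, a rate that chance alone gives in about 1 in 20 groups. NFKB2 in 6.7 Gy day 4 replicate 1 was lowest at -3.11 (share 0.854), on an array of slide 5 where the probe was not well above background, and the second NFKB2 probe was lowest on the same array at -3.18. BIRC3 in 7.4 Gy day 7 replicate 2 was highest at 2.62 (share 0.914), and on the 3 other arrays of that group it lay between 1.19 and 1.32.

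The change against control differed between days for 3 genes in limma's test of the difference itself. From day 4 to day 7 the difference was -1.02 for TNF, -1.35 for IER3 and -1.17 for TNFAIP3. From day 4 to day 12 it was -1.27 for TNF and -1.53 for IER3. Position on the slide and day cannot be told apart in these comparisons.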

How the results depend on the processing

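No alternative reversed a direction among the changes of single genes that were recomputed. For the number of the 9 genes called after 6.7 Gy on day 4 (1), the count was 0 with no filter on dim probes, with only probes well above background on all arrays, with a common floor and with the methods' t-test, and 1 without any single array. After 7.4 Gy on day 4 (1) it was 2 with a trended and robust spread, slide as a fixed or a random block, the replicate block or all arrays in 1 model, 0 with position as a block, and 1 without any single array. In the mean of both doses on day 4 (3) it was 1 with normexp, with only probes well above background on all arrays, with slide as a fixed block and with a scan day block, 2 with quantile normalization, no filter on dim probes, a common floor, the replicate block and without slide 5, 0 with position as a block, and 1 to 3 without single arrays. From day 4 to day 7 (3) it was 1 with only probes well above background on all arrays and 2 to 3 without single arrays, and 2 in the 6 of 13 settings that lost TNF. From day 4 to day 12 (2) it was 1 with no filter on dim probes, a common floor, the replicate block or without slide 5, 0 with only probes well above background on all arrays, and 1 to 2 without single arrays. The F test (2) gave 1 to 3 over the other settings, with 1 only under the filter to probes well above background on all arrays, and 2 without any single array. The filter to probes well above background on all arrays tests neither TNF nor IER3; the cause of the other moves was not tested. All other comparisons kept 0 genes called.

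The replicate block left the day 4 changes of IER3 (1.78) and TNFAIP3 (1.01) called and TNF (1.19) not called, with an adjusted p of 0.0511. With it TNF differed by -1.07 between day 4 and day 12 (adjusted p = 0.113). Over all probes, the calls on day 4 were 559 and 733 at the single doses and 811 in the mean, and with position as a block 140, 11 and 46. The methods' t-test called 155 and 301. With position as a block, comparisons of day 7 or day 12 with control or with day 4, and the F test, could not be fitted. Where leaving out an array left 1 array in a day 12 group, the lone array was assumed to vary like the other groups. Signal over background limits the values of NFKB2, RELB and TRAF1, whose probes were well above background on 20, 19 and 19 of 24 arrays.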
